A study of Homo sapiens with 4 samples.

Results

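The BCL2 relatives that control mitochondrial death were examined as the intervals of open chromatin lying in or near 9 genes: BCL2L1, MCL1 and BCL2A1, which encode survival proteins, BCL2L11, BMF, PMAIP1, BIK and BID, which encode death-promoting proteins of the BH3 class, and BAK1, which encodes a pore former. BCL2 itself was left out. An interval, meaning a merged ATAC-seq peak, belonged to a gene when its midpoint lay inside the gene body, and otherwise when that gene had the nearest protein-coding gene end within 100 kb. By this rule 119 of 73135 intervals belonged to the 9 genes, and 117 of them had enough reads to be tested. A position of this kind leaves the regulated gene unknown.

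ATAC-seq, in which a transposase tags DNA free of nucleosomes, was run on TMD8, an established line of activated B cell-like (ABC) diffuse large B cell lymphoma. There were 2 control libraries with a scrambled short hairpin RNA (shRNA) and 2 libraries with an shRNA against the transcription factor IRF4, labelled shIRF4. The library names of the silenced group say siIRF4, and the titles and design text were followed. Hairpin sequence, delivery and time after silencing are not given in the sources used here. Nothing says that the libraries came from separate cultures, so the p-values measure only the spread between them, which may be technical.

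Proteins of the BCL2 family decide whether the outer mitochondrial membrane stays intact. Survival members such as BCL-XL (from BCL2L1), MCL1 and BFL1 (from BCL2A1) hold the pore formers BAK and BAX in check, and BH3-only proteins, among them BIM (from BCL2L11), BMF and NOXA (from PMAIP1), bind and neutralise the survival members. When BAK or BAX opens the membrane, cytochrome c is released and caspases are activated. B cell lymphomas often depend on the survival members, some of which NF-kB induces.

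Start regions are shown for 4 genes that had 3 or more called intervals away from a start interval that was not called. Each is the RefSeq window from 250 bases before to 50 bases after an annotated start (GRCh38.p14, minus strand for BCL2L1, BCL2A1 and BMF and plus strand for PMAIP1). The windows lie at chr20:31723914-31724213 (BCL2L1, outer start), chr15:79971147-79971446 (BCL2A1), chr15:40106917-40107216 (BMF, inner start) and chr18:59899746-59900045 (PMAIP1). Capitals mark matches to the motifs searched, and the windows without capitals had no match.
BCL2L1: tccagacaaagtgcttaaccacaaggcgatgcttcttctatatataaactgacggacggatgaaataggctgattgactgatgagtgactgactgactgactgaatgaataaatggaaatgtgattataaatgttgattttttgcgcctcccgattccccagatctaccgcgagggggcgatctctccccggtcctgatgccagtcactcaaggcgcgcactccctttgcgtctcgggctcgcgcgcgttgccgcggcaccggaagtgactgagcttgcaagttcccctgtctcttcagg
BCL2A1: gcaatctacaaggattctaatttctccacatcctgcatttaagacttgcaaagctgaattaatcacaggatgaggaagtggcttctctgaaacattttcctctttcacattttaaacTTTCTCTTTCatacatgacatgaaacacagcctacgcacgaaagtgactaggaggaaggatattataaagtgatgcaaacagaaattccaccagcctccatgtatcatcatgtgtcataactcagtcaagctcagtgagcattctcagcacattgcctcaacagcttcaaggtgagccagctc
BMF: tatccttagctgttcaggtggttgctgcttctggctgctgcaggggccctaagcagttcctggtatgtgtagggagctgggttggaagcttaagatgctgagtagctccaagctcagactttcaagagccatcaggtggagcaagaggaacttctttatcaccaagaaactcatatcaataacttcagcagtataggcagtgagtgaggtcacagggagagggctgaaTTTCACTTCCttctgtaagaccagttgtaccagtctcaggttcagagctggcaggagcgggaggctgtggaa
PMAIP1: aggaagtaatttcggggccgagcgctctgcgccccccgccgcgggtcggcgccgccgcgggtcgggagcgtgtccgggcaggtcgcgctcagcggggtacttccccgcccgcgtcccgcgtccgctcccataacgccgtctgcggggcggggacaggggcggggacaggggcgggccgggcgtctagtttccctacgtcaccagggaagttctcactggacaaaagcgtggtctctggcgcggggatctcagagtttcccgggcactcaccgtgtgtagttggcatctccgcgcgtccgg

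RefSeq windows were found for 7 of the 9 genes (13 windows), with none for MCL1 and BIK. Both strands of each window were searched for the interferon-stimulated response element, the ETS-IRF composite element, the AP-1 site TGANTCA, the AP-1-IRF composite in its overlapping and its spaced form, each of which contains the AP-1 site, and the NF-kB site in its common spellings. Only 2 of the 13 windows held a match. The BCL2A1 window held the response element on its opposite strand at bases 118 to 127 (TTTCTCTTTC as printed), a pattern that 3.57% of all 35116 windows hold. The inner BMF window held the ETS-IRF composite on its opposite strand at bases 229 to 238 (TTTCACTTCC), which 2.82% of all windows hold. The AP-1 site, at 7.71% of all windows, had no match in the 13. Neither had the NF-kB spellings (0.191% and 0.145% of all windows) or the overlapping and spaced AP-1-IRF forms (0.162% and 0.114%). At such shares no match in 13 windows is no result in itself. The BCL2A1 window was also poor in CpG, with 2 CpG dinucleotides and 41.0% GC, against 42 and 71.3% in PMAIP1 and a median of 14 and 58.7% over all windows. A match is a description of the letters and not evidence of binding. The changed intervals themselves have no sequence here.

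The read total over all intervals was lowest in shIRF4 replicate 2 (9112860) and highest in shIRF4 replicate 1 (17954924), with the control libraries between them. Between the control libraries the chi-square per degree of freedom was 1.04, close to the 1 of pure counting error, and between the shIRF4 libraries it was 2.01. A fit with 1 library left out takes its spread from the other group's pair alone. A call can therefore be lost or gained in such a fit with little change in the log2 fold change. Interval levels are given as CPM, the usual depth-scaled read count, here relative to the TMM-adjusted library total, and changes are log2 fold changes of shIRF4 against control with their standard error (SE). Lower, higher, rose and fell refer to a Benjamini-Hochberg adjusted p under 0.05 in the edgeR quasi-likelihood test over all 73028 tested intervals. A lower value may mean fewer cells with the site open or less opening in each cell, which cannot be told apart. All 7 B cell markers read, among them MS4A1, CD79A and PAX5, had an interval at the gene start, with summed levels of 500 to 507 CPM in control and 474 to 525 CPM in shIRF4. Start intervals existed for 2 of 5 T cell markers (26.5 to 30.9 CPM summed, CD8A and CD3E), 0 of 4 NK cell markers, 2 of 4 myeloid markers (12.1 to 14.1 CPM) and 1 of 4 epithelial and fibroblast markers (14.5 to 16.5 CPM).

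Across the 9 genes, 19 of the 117 tested intervals were lower in shIRF4, 6 were higher and 92 were not called. The background over the 73028 intervals was 22.8% called, 15.5% lower (11345) and 7.27% higher (5306), against 16.2% lower and 5.13% higher among the 117. Scaled by library totals only, the background was 9930 lower (13.6%) and 7175 higher (9.82%), with 17 and 7 in the 9 genes. With either scaling the shares thus lay near the background, and the results concern single intervals rather than the family. The median log2 fold change was -0.07 over the 117 intervals and 0.01 over all. Both shIRF4 libraries lay below both control libraries at 48 of the 117 intervals (41.0%, against a background of 30.3%) and above them at 21 (17.9%, against 28.7%). At the stricter settings the background fell as well. DESeq2 called 11 lower and 0 higher in the 9 genes (background 5.07% and 1.17%), so that its lower share lay above the background. A test against a 1.5-fold change called 3 and 0 (3.31% and 0.641%). In 8 of the 9 genes at least 1 interval was lower, BIK being the exception. Among all 6014 genes with at least 4 tested intervals, 55.6% had a lower interval, 36.9% a higher one and 18.8% both, as 3 of the 9 did. The 9 genes had between 4 (MCL1) and 31 (PMAIP1) tested intervals each. This background was not matched for that number, so the shares cannot be compared directly.

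**Figure D1:**
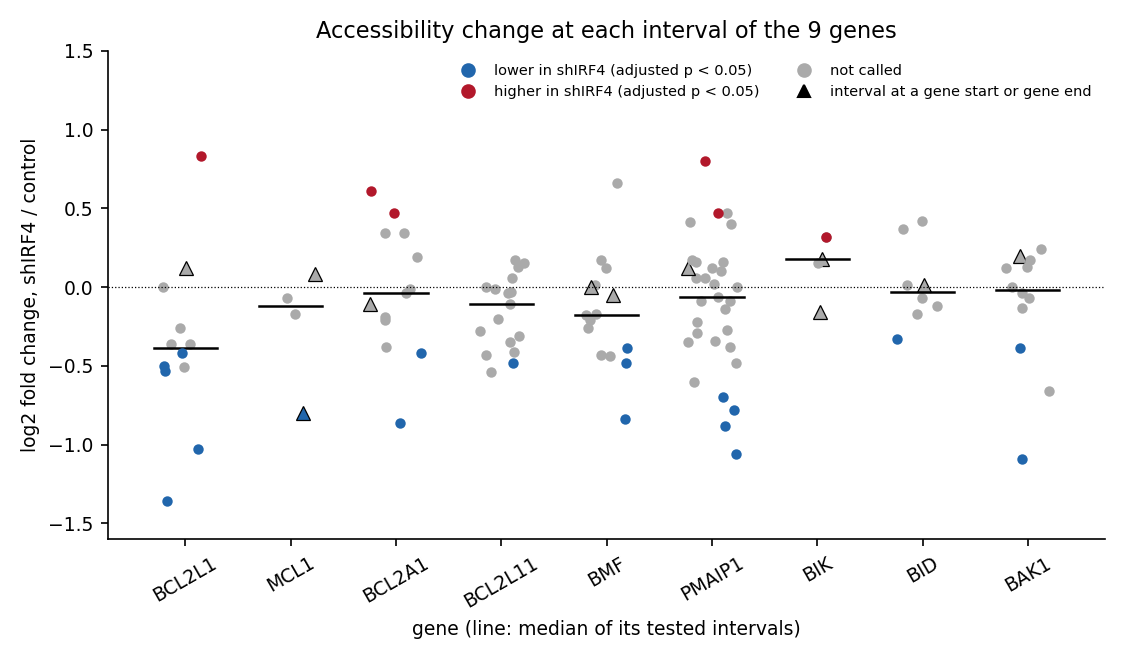
Log2 fold change (shIRF4 over control, y axis) of each of the 117 tested intervals, by gene (x axis), with the colour giving the edgeR call, triangles marking intervals at a gene start or gene end, and a line at the gene's median. The falls reach -1.36 at BCL2L1, and the triangles lie near 0 except at 1 end of MCL1 (-0.80).

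The calls lay away from the gene starts. None of the 7 intervals that overlap a RefSeq start window of BCL2L1, BMF (2 intervals), BCL2A1, PMAIP1, BID or BAK1 was called by edgeR, 0 of them had an unadjusted p under 0.05, and DESeq2 called 0. Of all 9532 such start intervals 3.81% were lower and 4.69% higher, so 7 without a call are no result in themselves. Of the 38 other tested intervals in gene bodies, 8 were lower and 2 higher (background for this class 17.8% and 7.75%), and of the 68 outside gene bodies 10 were lower and 4 higher (15.8% and 7.79%). The remaining 4, reaching within 1 kb of an end of MCL1 or BIK, included 1 lower interval. The start intervals of PMAIP1 and BCL2L1 were the most read of their genes, at 64.4, 65.0, 70.4 and 70.7 CPM for PMAIP1 and 66.4, 63.1, 72.3 and 68.2 CPM for BCL2L1 in control replicates 1 and 2 and shIRF4 replicates 1 and 2. At both genes the shIRF4 libraries lay slightly above the control libraries, with a log2 fold change of 0.12 (95% interval -0.01 to 0.25 for PMAIP1 and -0.01 to 0.26 for BCL2L1). Without shIRF4 replicate 2 the BCL2L1 start interval was called higher (0.16, adjusted p = 0.0386, edgeR).

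Among the survival genes, BCL2L1 had the largest losses, and they lay inside the gene. Its 12 intervals on chromosome 20 included 5 lower and 1 higher, and of the 110 other intervals within 1 Mb 13 were lower (11.8%). The strongest was at 31705517 to 31706556, in the gene body 17.9 kb from the outer start, with 14.7 and 15.3 CPM in control and 6.19 and 5.24 CPM in shIRF4. Every shIRF4 value was under 7 CPM and every control value over 14. The fall was -1.36 (SE 0.13, adjusted p = 1.65e-07, edgeR), or 2.57-fold. A second interval at 31708255 to 31709421, beginning 1699 bp further on and 15.1 kb from the start, had 15.2 and 13.1 CPM in control and 5.97 and 8.51 CPM in shIRF4. It fell by 1.03 on the log2 scale (SE 0.15, adjusted p = 2.20e-05, edgeR), with the groups well apart. These were 2 of the 3 intervals of the 9 genes that also passed a test against a 1.5-fold change (adjusted p = 0.00012 and 0.0228, edgeR). The long noncoding gene BCL2L1-AS1 spans both midpoints, so the loss cannot be ascribed to BCL2L1 by position alone.

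Smaller falls were found on either side of that pair. The interval at 31717223 went from 13.5 and 11.8 CPM to 8.85 and 8.51 CPM (-0.53, SE 0.13), that at 31691424 from 12.6 and 11.7 CPM to 9.28 and 8.73 CPM (-0.42, SE 0.13), and that at 31685151 from 7.13 and 8.41 CPM to 4.99 and 6.44 CPM (-0.50, SE 0.17). In all 3 the groups did not overlap. The midpoints of the intervals at 31691424 and 31685151 also lie in BCL2L1-AS1. In 8 of the 9 body intervals apart from the start interval, both shIRF4 libraries lay below both controls, as they did in 33.0% of all body intervals. The exception was the interval at 31674959, which had few reads and rose from 1.68 and 1.64 CPM to 2.61 and 3.60 CPM (0.83, SE 0.26, adjusted p = 0.026, edgeR). These weaker calls were not all kept with 1 library left out, although the sign of each change was. The log2 fold change then lay between -0.36 and -0.47 at 31691424 and between -0.44 and -0.63 at 31717223. It ranged more widely at 31685151 (-0.27 to -0.64) and at 31674959 (0.65 to 1.13). Leaving out control replicate 1 ended the edgeR calls at 31717223 (log2 fold change -0.44), 31691424 (-0.36) and 31674959 (0.85). Leaving out control replicate 2 ended those at 31691424 (-0.47), 31685151 (-0.37) and 31674959 (0.82). Leaving out shIRF4 replicate 1 ended those at 31691424 (-0.46) and 31685151 (-0.27), and leaving out shIRF4 replicate 2 that at 31674959 (0.65). With the spread taken from 1 pair, these losses do not show that a change depends on the library left out.

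**Figure D2:**
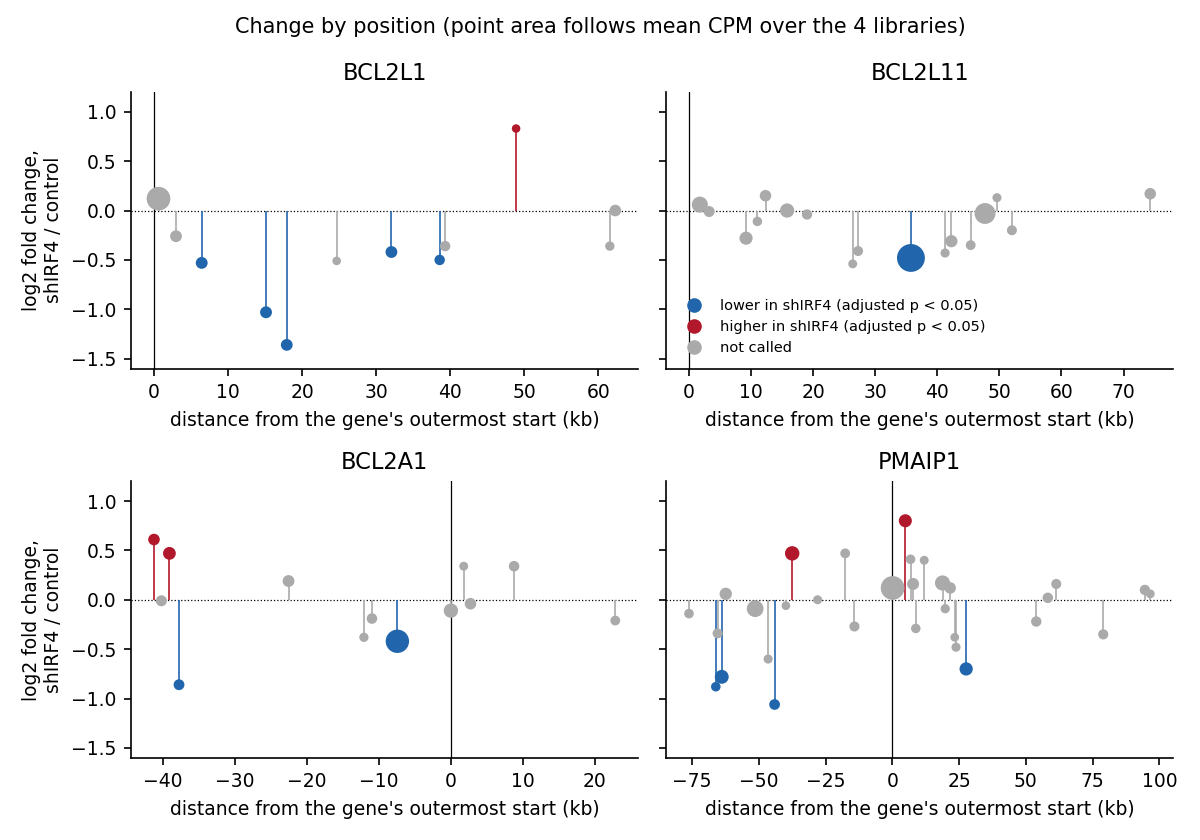
Log2 fold change (shIRF4 over control, y axis) against the distance of the interval midpoint from the gene's outermost RefSeq start (x axis, kb, positive in the direction of transcription) for 4 genes, with point area following mean CPM and colour giving the edgeR call. The start intervals of BCL2L1, BCL2A1 and PMAIP1 are uncalled, and BCL2L11 has none. The BCL2L1 falls lie 6.44 to 38.6 kb inside the gene, and PMAIP1 and BCL2A1 carry falls and rises in 1 locus.

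MCL1, whose short-lived protein protects many B cells, had 4 intervals on chromosome 1, of which 1 was lower. The interval at 150572952 to 150573934, just beyond 1 end of the gene and 1115 bp from it at its midpoint, had 13.3 and 13.2 CPM in control and 7.49 and 7.85 CPM in shIRF4. Both pairs were tight and far apart, and the fall was -0.80 (SE 0.13, adjusted p = 6.99e-05, edgeR). The midpoint also lies in the noncoding gene ADAMTSL4-AS1. At the other end of MCL1 the interval at 150579090 to 150580205, the gene's most read one, had 30.4 and 30.9 CPM in control and 31.1 and 34.3 CPM in shIRF4 and was not called (0.08, 95% interval -0.09 to 0.25). The remaining intervals lay at -0.07 and -0.17 and were not called.

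BCL2A1, an NF-kB target in B cells, had 2 lower and 2 higher intervals among its 13 on chromosome 15, all 4 before its start. Its most read interval, at 79977283 to 79979925 and 7.41 kb before the start, had 73.6 and 76.9 CPM in control and 59.0 and 53.1 CPM in shIRF4. The fall was modest but well outside the spread of the pairs (-0.42, SE 0.07, adjusted p = 7.62e-05, edgeR). Further out, 37.7 kb before the start, the interval at 80008512 to 80009365 fell from 9.31 and 10.6 CPM to 5.54 and 5.45 CPM (-0.86, SE 0.15, adjusted p = 0.000204, edgeR). Only 492 bp beyond its end, the interval at 80009857 to 80010686 moved the other way, from 11.0 and 11.98 CPM to 17.3 and 13.7 CPM (0.47, SE 0.12, adjusted p = 0.00781, edgeR). The interval at 80012082 also rose, from 7.89 CPM in both controls to 13.0 and 10.5 CPM (0.61, SE 0.14, adjusted p = 0.00233, edgeR). In both rises shIRF4 replicate 1 was the higher library. Neither passed without it (0.27, adjusted p = 0.275, and 0.42, adjusted p = 0.120, edgeR), and the first was also lost without control replicate 1 (0.40, adjusted p = 0.0745, edgeR). The start interval of BCL2A1, over the window printed above, had 20.2 and 19.3 CPM in control and 18.9 and 17.3 CPM in shIRF4 and was not called (-0.11, 95% interval -0.31 to 0.09).

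Among the BH3-only genes, BCL2L11 lost accessibility at its strongest site. Of 17 intervals on chromosome 2, 1 was lower and 16 were not called. The lower one, at 111154876 to 111158459 in the gene body 35.8 kb from the start, was the most read interval of all 9 genes, with 115 and 114 CPM in control and 83.2 and 80.0 CPM in shIRF4. The pairs lay within a few CPM of each other, and the fall was -0.48 (SE 0.06, adjusted p = 1.71e-06, edgeR), or 1.40-fold. None of the analysed intervals overlapped the start window of BCL2L11; the first began 806 bp beyond it, at 111121769, with 23.9 and 26.9 CPM in control and 26.9 and 26.2 CPM in shIRF4 (0.06, 95% interval -0.12 to 0.25, not called). Over all 17 intervals, both shIRF4 libraries lay below both controls at 8, above them at 2 and overlapped them at 7, where 30.3% of all tested intervals lay below and 28.7% above.

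BMF, whose protein senses cytoskeletal and metabolic stress, had 3 lower intervals among 15 on chromosome 15. The largest fall lay beyond the far end of the gene, at 40073469 to 40074912, 13.7 kb outside it. That interval had 19.1 and 20.2 CPM in control and 10.6 and 11.7 CPM in shIRF4, with the groups well apart (-0.84, SE 0.11, adjusted p = 6.23e-06, edgeR). In the gene body the interval at 40095953 fell from 13.4 and 13.2 CPM to 10.6 and 7.85 CPM (-0.48, SE 0.13, adjusted p = 0.0119, edgeR). The fall was -0.75 without shIRF4 replicate 1 and -0.33 without shIRF4 replicate 2, and DESeq2 did not call it (adjusted p = 0.219). The interval at 40064169 fell from 19.2 CPM in both controls to 13.1 and 17.2 CPM (-0.39, SE 0.12, adjusted p = 0.018, edgeR). It lies 23.2 kb from BMF and 25.5 kb from SRP14, with its midpoint in the noncoding gene SRP14-DT, so its assignment is close to a tie. Its call was lost without control replicate 1, control replicate 2 or shIRF4 replicate 1 (adjusted p = 0.0639, 0.0681 and 0.504, edgeR). The 2 start intervals stayed within the spread of the libraries: that over the inner start, 40104500 to 40107965, had 43.9 and 45.5 CPM in control and 42.3 and 44.5 CPM in shIRF4 (-0.05, 95% interval -0.19 to 0.10), and that over the outer start 28.3 and 31.7 CPM and 29.6 and 30.8 CPM (0.00, 95% interval -0.17 to 0.18).

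PMAIP1 lies far from other protein-coding genes on chromosome 18 and had 31 intervals, 30 of them outside the gene body. Of these, 4 were lower and 2 higher. Before the start, the interval at 59855633 to 59856140 (44.1 kb away) fell from 9.65 and 10.3 CPM to 4.51 and 5.35 CPM. The groups were far apart, and with -1.06 (SE 0.16, adjusted p = 2.99e-05, edgeR) it was the third interval of the 9 genes to pass the test against a 1.5-fold change (adjusted p = 0.0221, edgeR). The interval at 59835667 (63.9 kb before the start) fell from 23.3 and 21.0 CPM to 14.01 and 11.02 CPM (-0.78, SE 0.11), and its neighbour at 59833668 from 6.63 and 5.28 CPM to 3.37 and 2.95 CPM (-0.88, SE 0.20). On the other side, 27.6 kb past the start, the interval at 59927054 fell from 18.4 CPM in both controls to 10.1 and 13.4 CPM (-0.70, SE 0.12). Its midpoint lies in the noncoding gene LOC105372151, and without shIRF4 replicate 1 the fall was -0.44 (adjusted p = 0.0275, edgeR).

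Rises lay between these falls. The interval at 59904161 to 59905529, 540 bp beyond the far end of PMAIP1 at its midpoint, had 11.6 and 10.1 CPM in control and 21.99 and 13.96 CPM in shIRF4. The shIRF4 libraries differed from each other by more than the controls did, and the rise was 0.80 (SE 0.15, adjusted p = 0.000423, edgeR). A second rise, at 59861952 to 59862994, which begins 5812 bp past the falling interval 44.1 kb before the start, went from 17.0 and 15.8 CPM to 23.9 and 20.8 CPM (0.47, SE 0.10, adjusted p = 0.00156, edgeR). Without shIRF4 replicate 1 these rises were 0.38 (adjusted p = 0.106, edgeR) and 0.36 (adjusted p = 0.0538, edgeR), and without control replicate 1 the fall at 59833668 no longer passed (-0.71, adjusted p = 0.0584, edgeR).

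BIK and BID had 1 called interval each. BIK, which encodes a BH3-only protein of the endoplasmic reticulum, had 5 intervals on chromosome 22, of which 1 was higher. It lay in the gene body at 43118325 to 43119848 and rose from 34.6 and 32.0 CPM to 42.7 and 39.6 CPM (0.32, SE 0.08, adjusted p = 0.00462, edgeR). The groups did not overlap, but leaving out control replicate 2 or shIRF4 replicate 1 ended the call (adjusted p of 0.118 and 0.0527, edgeR). The intervals over its ends were not called, at 15.4, 16.6, 18.5 and 17.7 CPM (0.18, 95% interval -0.03 to 0.39) and 11.8, 11.8, 10.2 and 11.1 CPM (-0.16, 95% interval -0.42 to 0.09) in control replicates 1 and 2 and shIRF4 replicates 1 and 2. BID, which links death receptors to mitochondria after cleavage by caspase-8, had 10 intervals on the same chromosome, of which 2 had too few reads to test. Its start interval, over all 5 of its RefSeq windows, had 30.7 and 29.8 CPM in control and 31.0 and 29.9 CPM in shIRF4 (0.01, 95% interval -0.15 to 0.18). The interval at 17779340 to 17782770, its most read one, fell from 43.4 and 37.6 CPM to 32.4 and 32.0 CPM (-0.33, SE 0.08, adjusted p = 0.00528, edgeR). That interval lies 6.39 kb from BID and 6.59 kb from MICAL3, and its call was lost without control replicate 1 (-0.22, adjusted p = 0.206, edgeR).

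BAK1, the pore former, had 2 lower intervals among 12 on chromosome 6. The interval at 33556920 to 33557267, 15.5 kb outside the gene, had 8.05 and 7.44 CPM in control and 2.82 and 5.13 CPM in shIRF4. Both shIRF4 libraries were below the controls, with replicate 1 much the lower (-1.09, SE 0.21, adjusted p = 0.000463, edgeR). Without shIRF4 replicate 1 the value was -0.58 and the call was lost (adjusted p = 0.0785, edgeR). The interval at 33573504 in the gene body fell from 12.8 and 11.5 CPM to 9.66 and 8.51 CPM (-0.39, SE 0.13, adjusted p = 0.0322, edgeR), and leaving out any 1 library ended this call (adjusted p between 0.053 and 0.277). The most read interval, at 33570414 to 33572110 and 1290 bp outside the gene, had 58.3 and 59.8 CPM in control and 51.0 and 57.4 CPM in shIRF4 and was not called (-0.13, 95% interval -0.28 to 0.01), although it was without shIRF4 replicate 2 (-0.21, adjusted p = 0.0103, edgeR). The start interval had 18.3 and 15.9 CPM in control and 19.1 and 20.3 CPM in shIRF4 (0.20, 95% interval -0.01 to 0.41, not called).

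Of the 25 called intervals, 10 were called the same way in each test of the counts tried except that against a 1.5-fold change, and all 10 were falls. They comprised the pair inside BCL2L1, the strong site in BCL2L11, the interval 13.7 kb outside BMF, the gene-end interval of MCL1, the intervals 7.41 and 37.7 kb before BCL2A1, and 3 of the 4 falls around PMAIP1. The PMAIP1 fall 63.9 kb before the start is no longer assigned to the gene when only intervals within 50 kb are. Each of the 6 rises failed in DESeq2 (0 called, 5 with an unadjusted p under 0.05), and 5 of the 6 were lost without shIRF4 replicate 1. The sign of all 25 was the same in each of these tests. Leaving out that library took the 9 genes to 15 lower and 1 higher, where the background was 8.79% and 3.58%. The counts were 15 and 5 without control replicate 1 (10.5% and 3.96%), 15 and 4 without control replicate 2 (11.1% and 3.87%), and 21 and 9 without shIRF4 replicate 2 (18.0% and 9.41%). Without a filter on low counts they were 19 and 6 (15.5% and 7.2%), with the control pair as 1 sample 16 and 6 (13.4% and 5.26%), and with the replicate number as a block 20 and 6 (15.6% and 7.13%).

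**Figure D3:**
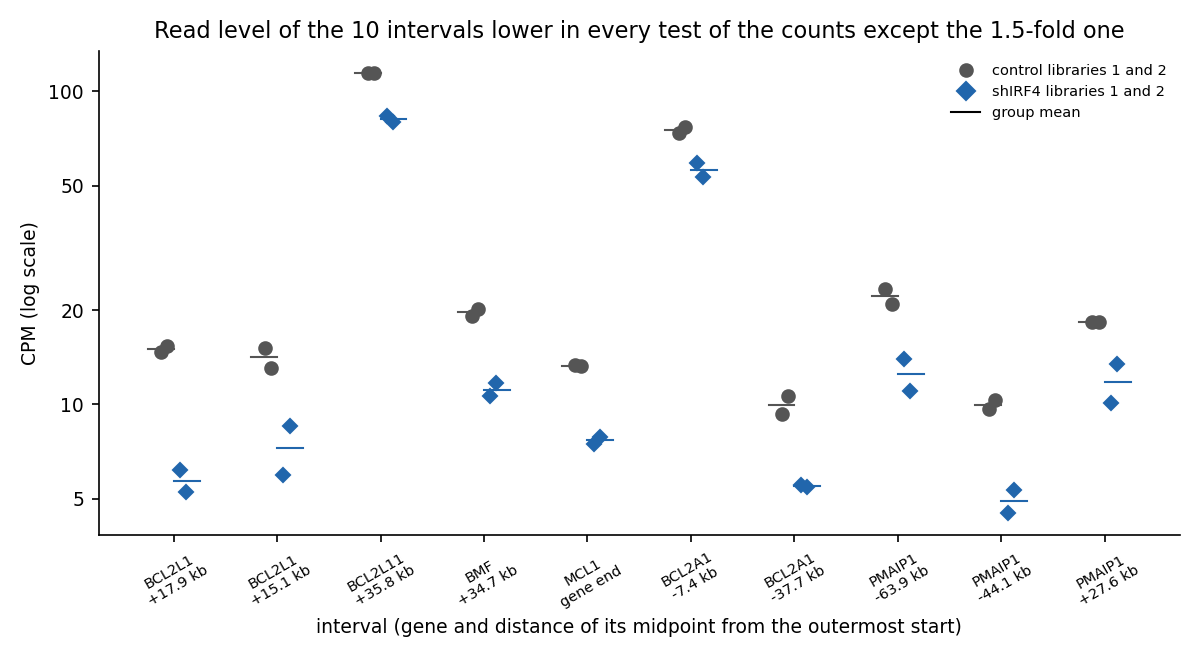
CPM in each library (y axis, log scale) for the 10 intervals called lower in each test of the counts except that against a 1.5-fold change (x axis, gene and distance of the midpoint from the outermost start), with circles for control, diamonds for shIRF4 and lines at group means. In all 10 both shIRF4 libraries lie below both control libraries, from 115 and 114 against 83.2 and 80.0 CPM at BCL2L11 down to 9.65 and 10.3 against 4.51 and 5.35 CPM at PMAIP1.

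The counts of all intervals of a gene were also summed and tested over 16173 genes. Of the 9 genes, 4 were lower (BCL2L1, BCL2L11, BMF and BCL2A1) and 1 higher (BIK). Among all genes 20.4% were called, 13.5% lower and 6.9% higher. That background was not matched for the number of intervals per gene, so the shares cannot be compared directly. A sum follows the most read intervals of its gene and so partly repeats the interval calls. BCL2L1 went from 188 and 177 CPM to 154 and 156 CPM (-0.24, SE 0.05, adjusted p = 0.0019, edgeR), and BCL2L11 from 333 and 345 CPM to 289 and 290 CPM (-0.23, SE 0.05, adjusted p = 0.00315, edgeR). BMF went from 250 and 254 CPM to 219 and 222 CPM (-0.19, SE 0.05, adjusted p = 0.00702, edgeR). Its sum was not called in DESeq2 (adjusted p = 0.106) or with body intervals only (-0.12, adjusted p = 0.0866, edgeR). For BCL2A1 the change was -0.16 (adjusted p = 0.0481, edgeR). It was -0.25 without shIRF4 replicate 1 and no longer passed without shIRF4 replicate 2 (-0.09, adjusted p = 0.08, edgeR) and with library totals (-0.11, adjusted p = 0.173). For BIK the change was 0.18 (SE 0.05, adjusted p = 0.0187, edgeR), with no call without shIRF4 replicate 1 (0.13, adjusted p = 0.13, edgeR). The sums of MCL1 (-0.13, 95% interval -0.24 to -0.02), BID (-0.11, -0.21 to -0.01), BAK1 (-0.10, -0.21 to 0.01) and PMAIP1 (-0.05, -0.16 to 0.06) did not pass the adjusted threshold. All of these changes were under 1.2-fold in size, and the number called moved with the library left out, among all genes too. Without control replicate 1, edgeR called 0 of the 9 genes (5 with an unadjusted p under 0.05, DESeq2 on all libraries 2), where 12.3% of all genes were called. Without control replicate 2 it called 1, BCL2L1 (adjusted p = 0.00588, background 12.7%), without shIRF4 replicate 1 it called 4 (18.4%) and without shIRF4 replicate 2 it called 7 (29.2%).

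The chromosome around each gene had a median near 0, although single intervals there were called. The median of the other intervals within 1 Mb lay between -0.05 (around BCL2L11) and 0.06, while the median of a gene's own intervals lay between -0.39 (BCL2L1) and 0.18 (BIK). The own medians of BCL2A1 (-0.04), PMAIP1 (-0.06), BID (-0.03) and BAK1 (-0.02) were also near 0. BID and BCL2L11 lay in surroundings with more lower intervals (20.7% and 18.7% of the others within 1 Mb), and MCL1 in surroundings with few (4.12%). The share of higher intervals in the surroundings ran from 3.12% (BMF) to 11.5% (BCL2A1), with 11.4% around BCL2L11 and BIK.

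**Figure D4:**
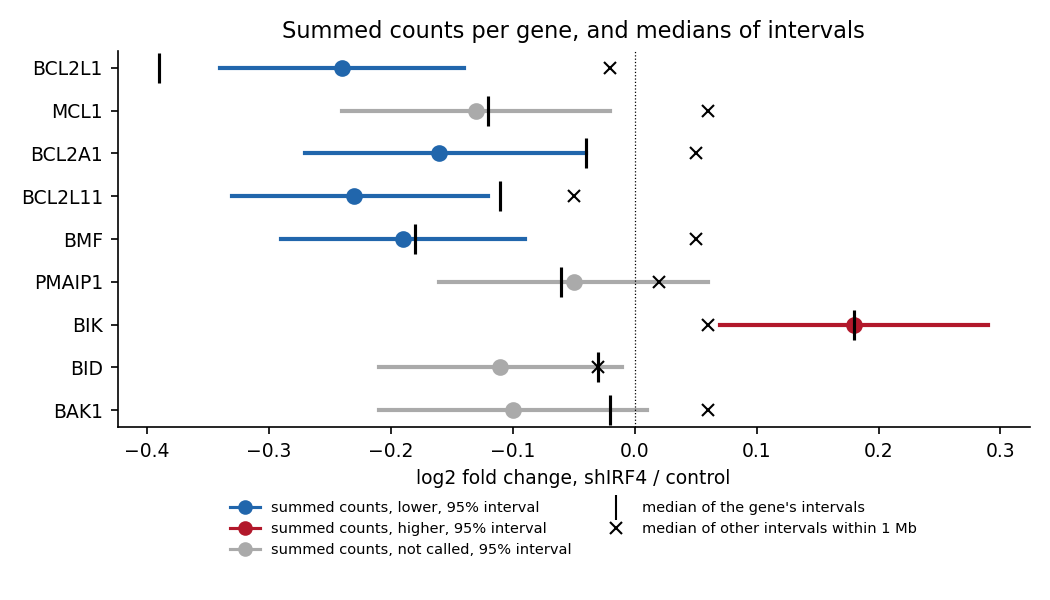
Log2 fold change (shIRF4 over control, x axis) of the summed counts of each gene (points, with 95% intervals from the edgeR fit), beside the median of the gene's own intervals (bars) and of the other intervals within 1 Mb (crosses). The sums of 4 genes are lower and that of BIK higher, while the crosses stay between -0.05 and 0.06.

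Intervals at other genes of the mitochondrial pathway were called about as often as intervals in general. The list held 34 genes, from further BCL2 relatives to caspases and their inhibitors, and 32 had an interval. Of 131 tested intervals 20 were lower (15.3%, background 15.5%) and 10 higher (7.63%, background 7.27%), with a median log2 fold change of 0.08. Both shIRF4 libraries lay above both control libraries at 51 (38.9%, background 28.7%) and below them at 28 (21.4%, background 30.3%). Lower intervals occurred at 13 genes, among them BAX, BOK, BCL2L12, BCL2L13, VDAC2, MTCH2, CYCS, DYNLL2, HUWE1, FBXW7 and FOXO1. Higher ones occurred at 6, among them HRK, BCL2L14, XIAP, FOXO1 and OPA1, and 2 genes, FOXO1 being 1 of them, were in both counts. The other 15 genes with intervals had none called, among them BAD, BBC3, which encodes the BH3-only protein PUMA, and APAF1, the scaffold of the apoptosome. They include BCL2L10, whose 2 intervals had too few reads to test. Leaving out shIRF4 replicate 1 reduced the calls to 9 lower and 6 higher (background 8.79% and 3.58%), leaving out control replicate 2 to 12 and 6 (11.1% and 3.87%), and leaving out control replicate 1 to 14 and 6 (10.5% and 3.96%).

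BCL2L13, HRK, OPA1 and FOXO1 were among the 6 genes whose best interval had the smallest p. An interval in the body of BCL2L13, at 17706109 on chromosome 22 and in the same neighbourhood as BID, overlaps a RefSeq start window. It fell from 10.9 and 10.04 CPM to 4.89 and 5.78 CPM (-1.01, SE 0.15). The other tested interval of BCL2L13 was not called, and the median of the 2 was -0.50. HRK encodes a BH3-only protein, and its body interval at 116860762 on chromosome 12 rose from 30.03 and 30.43 CPM to 42.6 and 42.2 CPM (0.49, SE 0.08), with tight pairs. In OPA1, which encodes a GTPase that shapes the inner membrane, the interval at 193693764 on chromosome 3 rose from 8.14 and 8.11 CPM to 15.4 and 13.0 CPM (0.83, SE 0.13). In FOXO1, which encodes a factor that can activate BCL2L11, the interval at 40581205 on chromosome 13 rose from 4.61 and 4.31 CPM to 7.71 and 8.95 CPM (0.87, SE 0.17).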

How the data were processed

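ATAC-seq was run on 2 control and 2 shIRF4 libraries of TMD8. The authors deposited raw read counts per merged peak, made with featureCounts 2.0.0 per the file headers, with each read reduced to its 5' end and duplicates ignored, which limits counts of densely read intervals. Coordinates are on hg38 (per the submitters' processing notes). Nothing in the sources used here names an aligner, a peak caller or a shift for the transposase.

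Counts were filtered with filterByExpr (73028 of 73135 intervals tested), scaled by TMM and tested with edgeR 4.0.16 in R 4.3.3 (glmQLFit, two-sided, group as the only term), with adjustment over all intervals. SE is the log2 fold change divided by the square root of F, and 95% intervals use the fit's degrees of freedom. Genes came from RefSeq (GRCh38.p14); where several bodies held a midpoint the shortest was taken, which happened for 0 of the 119 intervals. The script was tested on simulated data. The text names each called interval, start or gene-end interval and most read interval of the 9 genes, and of the other pathway genes the best interval of the 6 genes with the smallest p, of which 2 are not reported here. DESeq2 1.42.0, other scalings, filters, assignments, a replicate block and leaving out each library were tried. Members and lists were chosen with earlier results of these data known.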

Additional observations from a re-analysis of the deposited data

How the results depend on the processing

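The main counts for the 9 genes were 19 lower and 6 higher intervals. DESeq2 gave 11 and 0, and the test against a 1.5-fold change 3 and 0. Leaving out 1 library gave 15 to 21 lower and 1 to 9 higher intervals. Scaling by library totals gave 17 and 7, no low-count filter 19 and 6, the control pair counted as 1 sample 16 and 6, assignment within 50 kb 17 and 6, and assignment to the nearest gene end 19 and 6. For the other pathway genes, 20 lower and 10 higher intervals became 4 and 4 in DESeq2, 4 and 1 against a 1.5-fold change, 17 and 15 with library totals, and 9 to 17 lower and 6 to 15 higher with 1 library left out. Summed counts called 5 of the 9 genes, 2 in DESeq2, 1 with the control pair as 1 sample, 3 with body intervals only and 0 to 7 with 1 library left out. The sum of BCL2A1 changed from -0.16 to 0.01 with body intervals only, which leaves out its 9 intervals outside the body, among them the 4 called ones. The cause of these differences was not tested.

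The replicate numbers of the titles are not said to mark a shared batch, and deviations of same-numbered libraries did not correlate (r = -0.0262 across intervals). With the replicate number as a block, 20 lower and 6 higher intervals were called, the interval at BCL2L1 31685151 lost its call (adjusted p = 0.0505, edgeR), and 5 genes were called on summed counts. Depth was lowest in shIRF4 replicate 2, and 2 libraries a group limit the precision of each value.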
